A study of Rattus norvegicus with 46 samples.

Results

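Belgrade rats and Wistar rats that had both been given iron for 3 days before they were killed were compared in the duodenal villus. The iron-fed Belgrade group (labelled b/b + Fe 3 Days) held 4 rats and the iron-repleted Wistar group (labelled Fe-repletion (3d)) held 3, and every rat was measured on 2 arrays, from the top and from the bottom of its villi. These 14 arrays were chosen by their labels out of 46 in the series. Belgrade (bb) rats on a Wistar background are homozygous for a missense mutation of Slc11a2, the gene of the divalent metal transporter DMT1. The labels give no age for them and name no low-iron diet or bleeding before the iron. The Wistar (++) rats were 1 month old when they went onto a low-iron diet, and over 4 weeks 2 to 3 ml of blood was drawn at intervals of 3 days. Their water then held 50 µM ferric ammonium citrate until they were killed 3 days later, and 1 rat of that group died while it was being bled. The labels state no dose for the Belgrade rats other than that procedures were the same. All 7 rats were fasted overnight, and cryostat sections of a duodenal piece just past the pylorus were pooled into the top and the bottom of the villus. Genotype, earlier iron deficiency by diet and bleeding, and any difference in age therefore differ together between the groups and cannot be told apart.

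DMT1 carries ferrous iron across the apical membrane of duodenal enterocytes after ferric iron has been reduced there by duodenal cytochrome b (Cybrd1). Ferroportin (Slc40a1) exports iron at the basolateral side with the ferroxidase hephaestin (Heph). Many of these genes are raised by low iron, and iron regulatory proteins and the hypoxia-inducible factor HIF-2α are among their regulators. The Belgrade mutation leaves DMT1 largely inactive, so that the animals are anaemic. Cells are born in the crypt and move up the villus as they mature, so genes of crypts are normally brighter at the villus bottom and those of mature enterocytes at the top.

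Values are given as levels, which are log2 intensities after quantile normalization, and as differences, which are iron-fed Belgrade minus iron-repleted Wistar on that scale. A level of 5.46 corresponds to no signal above the added constant, and levels under 8.99, the 40th percentile, are dim. Array medians before normalization ran from 637 to 889 intensity units in the iron-fed Belgrade rats, and from 680 to 1179 in the repleted Wistar rats. The missense allele is still transcribed, so the Slc11a2 level does not check the genotype. Enterocyte identity markers were present in both groups, and the median difference of the 18 measured was 0.073 at the top and -0.045 at the bottom. Without repleted rat 3, described next, the medians were -0.064 and -0.455, and at the bottom 3 of 18 were then higher in Belgrade.

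Repleted rat 3 stood apart from repleted rats 1 and 2. The robust SD of the differences between rats 1 and 2 was 0.808 over all probe sets at the top, against 1.36 and 1.37 for the pairs with rat 3. At the bottom it was 0.646, against 0.942 and 0.996. Rat 3 also had the array with the highest median intensity of the 44 villus arrays, 1179 at the top, and it was the 1 repleted rat with a high Xist level, which 1 of the 4 iron-fed Belgrade rats (rat 2) had too. The main results are therefore given with and without it. Leaving it out left no repleted rat with a high Xist level, while Belgrade rat 2 remained, so the groups then also differed in this. In these sections a difference may come from fewer cells of a type or from less RNA per cell, and the arrays cannot separate these.

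At the villus top 3 of 31042 probe sets passed an adjusted p of 0.05 (limma with Benjamini-Hochberg adjustment), which is 0.00966%, and all 3 were higher in iron-fed Belgrade rats. At an unadjusted p of 0.05, 4837 probe sets passed (15.6%), and 15698 of all probe sets were higher in Belgrade by any amount. The count turned on single rats. It was 1 without Belgrade rat 1 and 0 without Belgrade rat 3 or rat 4. Leaving out repleted rat 1, 2 or 3 gave 476, 507 and 12. The named one was Spink4, a protease inhibitor of the secretory granules of goblet cells. Its levels at the top were 15.35, 12.73, 14.71 and 13.61 in the iron-fed Belgrade rats and 11.02, 9.26 and 11.15 in the repleted Wistar rats. Every Belgrade array lay above every repleted one. The difference was 3.63 ± 0.60 (SE), with an adjusted p of 0.0361, and without repleted rat 3 it was 3.96 with an adjusted p of 0.0263. The call was lost without Belgrade rat 1, rat 3 or rat 4, with differences of 3.21, 3.42 and 3.79 (adjusted p 0.0659, 0.145 and 0.0524). The other 2 probe sets have no gene symbol in the annotation used. The first, 1389601_at, differed by 2.04 ± 0.31 (adjusted p 0.0326) and the second, 1397389_at, by 2.38 ± 0.38 (adjusted p 0.0326), and their groups did not overlap either. Both passed again without repleted rat 3.

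At the villus bottom 3 probe sets passed, again 0.00966%, all higher in iron-fed Belgrade rats, and 3665 passed unadjusted (11.8%). The count was 0 without Belgrade rat 1, 2 or 3, and leaving out repleted rat 1, 2 or 3 gave 105, 7 and 13. Rcbtb1, a protein with RCC1 repeats and a BTB domain, had levels of 12.63, 12.71, 12.37 and 12.44 in the Belgrade rats and 11.62, 11.14 and 10.74 in the repleted rats. Its difference was 1.37 ± 0.22 (limma, adjusted p 0.0415), and without repleted rat 3 it was 1.15 with an adjusted p of 0.0806. Of the 7 rats only repleted rat 1 could be left out without loss of the call, and the differences then ran from 1.15 to 1.60. Bcl2l2, which encodes the survival protein BCL-W, had levels of 11.55, 12.13, 11.95 and 12.11 in the Belgrade rats and 10.53, 10.50 and 10.77 in the repleted rats. The groups did not overlap, and the difference of 1.34 ± 0.21 (adjusted p 0.0415) was 1.42 without repleted rat 3 (adjusted p 0.0484). It also passed without repleted rat 1, but not without repleted rat 2 or any 1 Belgrade rat, with differences of 1.27 to 1.46 over these fits. The probe set with no symbol, 1377418_at, was at 8.84 to 9.84 in the Belgrade rats and at 5.90 to 6.66, in the dim range, in the repleted rats.

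Goblet cells make the mucus of the intestine, and 9 of 12 goblet cell markers were measured. At the villus top 8 of the 9 were higher in iron-fed Belgrade rats, with a median difference of 0.745, against 0.0105 over all probe sets. Spink4 alone passed the test. In 6 of the 9 the groups did not overlap and Belgrade was higher, against a background of 5.64% of all probe sets. The median without repleted rat 3 was 0.721. Agr2, a disulfide isomerase that folds mucins in the endoplasmic reticulum, had levels of 16.75, 15.24, 15.96 and 15.38 in the Belgrade rats and 14.08, 13.18 and 14.08 in the repleted rats. The groups did not overlap, and the difference of 2.05 ± 0.40 had an adjusted p of 0.0594 (0.0703 without repleted rat 3). Clca1, a metalloprotease secreted with mucus, was at 14.90, 14.83, 14.99 and 14.79 in the Belgrade rats and at 13.38, 11.12 and 13.50 in the repleted rats. This difference was 2.21 ± 0.48 (adjusted p 0.0711), and the Belgrade rats lay within a span that was narrow beside that of the repleted rats.

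Other goblet cell genes had smaller differences at the top. Muc2, the main gel-forming mucin, averaged 17.02 in Belgrade rats (lowest 16.90) and 16.27 in repleted rats (highest 16.84), with a difference of 0.74 (adjusted p 0.0757). Differences were 0.69 for the trefoil peptide Tff3 (adjusted p 0.0902) and 0.50 for the lectin Zg16 (adjusted p 0.112). For the goblet cell transcription factor Spdef the difference was 1.23, but repleted rat 2, at 11.20, was level with the Belgrade rats, which spanned 10.89 to 11.19. Fcgbp, a protein that binds mucus, differed by 0.28. The 1 marker with a negative difference was Muc13, a mucin of the cell surface that enterocytes also carry, at -0.40.

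In the villus bottom the median of the 9 markers was 0.31 and none passed the test. Spink4 was at 16.97, 15.39, 16.97 and 16.36 in the Belgrade rats and at 15.26, 14.29 and 15.42 in the repleted rats, so that Belgrade rat 2 fell among the repleted rats. The difference was 1.43 (adjusted p 0.194). Clca1 differed by -0.08 at the bottom, and Agr2 by 0.49. Only for Tff3 and Zg16 did the bottom arrays not overlap, with differences of 0.42 (adjusted p 0.241) and 0.62 (adjusted p 0.111), both higher in Belgrade; the background for this at the bottom was 5.44%.

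**Figure D1:**
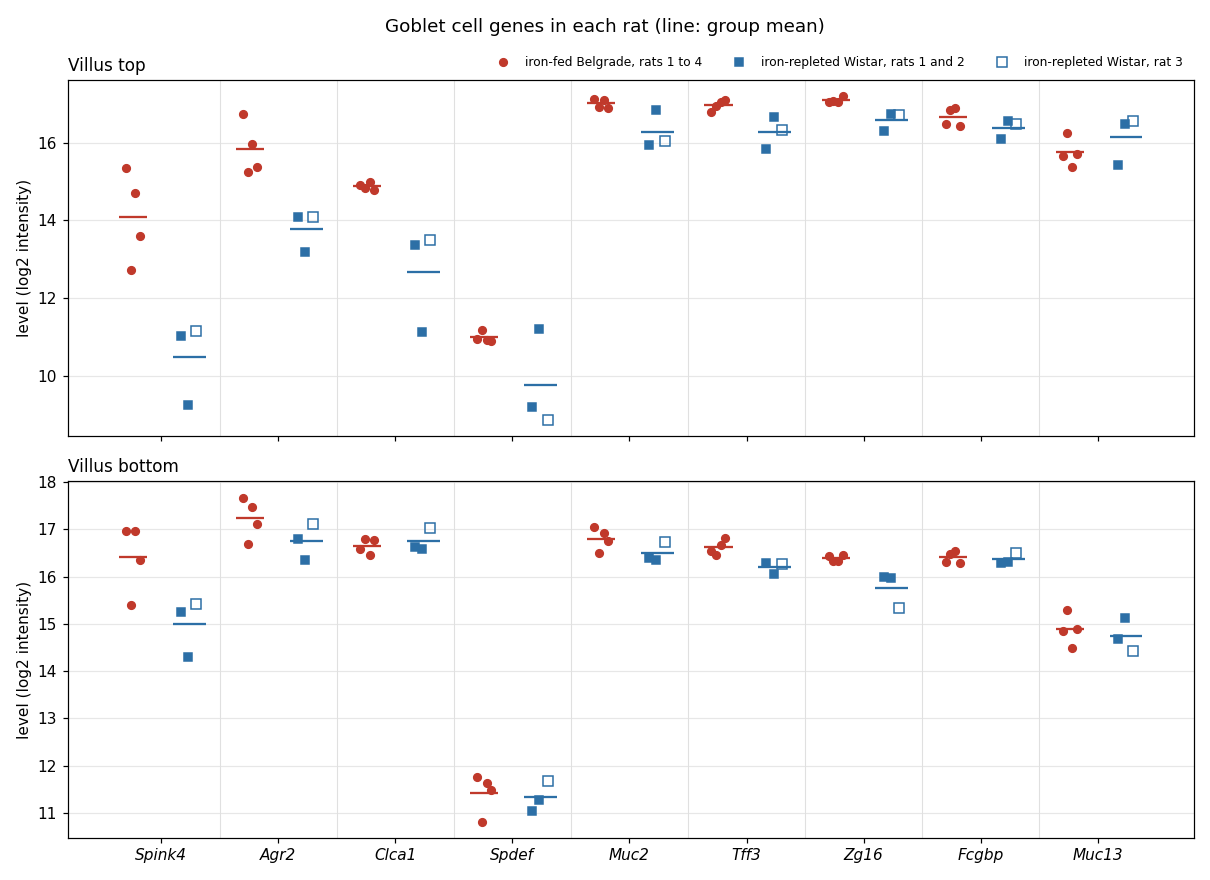
Level (log2 intensity, vertical axis) of 9 goblet cell genes in each rat at the villus top (upper panel) and bottom (lower panel). Red circles are the 4 iron-fed Belgrade rats and blue squares the 3 iron-repleted Wistar rats, with rat 3 open and a line at each group mean. At the top Spink4, Agr2 and Clca1 were apart by 3.63, 2.05 and 2.21, while Muc13 was 0.40 lower in Belgrade.

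The mean level of the 9 goblet markers at the top was 15.67, 15.34, 15.56 and 15.33 in the iron-fed Belgrade rats and 14.14, 14.23 and 14.42 in the repleted rats. The repleted rats were the lowest of all 6 villus groups. Belgrade rats given iron for 6 days ran from 15.07 to 15.39, and Belgrade rats on the normal diet from 15.11 to 15.72. Iron-deficient Wistar rats ran from 14.73 to 15.24 and control Wistar rats from 14.51 to 15.02. In bottom arrays the iron-fed Belgrade rats were at 15.64 to 16.02, and the repleted rats at 15.37 to 15.61.

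The promoters of the 3 goblet genes with the largest top differences are shown because these genes differed together. The sequences are from RefSeq (build GRCr8), are 300 bases long and reach from upstream of the gene's start to just past it, and have the motif CAGNTG, the core bound by basic helix-loop-helix factors such as Atoh1, in capitals wherever it occurred on either strand.
Spink4 promoter, chr5:60839669-60839968, + strand: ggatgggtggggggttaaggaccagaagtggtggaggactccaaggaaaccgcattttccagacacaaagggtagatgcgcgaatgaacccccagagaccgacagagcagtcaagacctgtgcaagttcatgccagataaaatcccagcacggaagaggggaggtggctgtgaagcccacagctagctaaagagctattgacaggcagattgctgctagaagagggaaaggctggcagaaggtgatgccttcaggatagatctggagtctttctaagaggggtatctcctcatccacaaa
Agr2 promoter, chr6:58435658-58435957, + strand: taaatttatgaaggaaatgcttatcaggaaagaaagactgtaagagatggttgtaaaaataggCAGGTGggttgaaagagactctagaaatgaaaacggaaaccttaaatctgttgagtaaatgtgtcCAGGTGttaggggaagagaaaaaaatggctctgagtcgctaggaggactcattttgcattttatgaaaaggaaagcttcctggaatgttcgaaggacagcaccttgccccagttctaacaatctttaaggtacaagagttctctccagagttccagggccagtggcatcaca
Clca1 promoter, chr2:236624665-236624964, - strand: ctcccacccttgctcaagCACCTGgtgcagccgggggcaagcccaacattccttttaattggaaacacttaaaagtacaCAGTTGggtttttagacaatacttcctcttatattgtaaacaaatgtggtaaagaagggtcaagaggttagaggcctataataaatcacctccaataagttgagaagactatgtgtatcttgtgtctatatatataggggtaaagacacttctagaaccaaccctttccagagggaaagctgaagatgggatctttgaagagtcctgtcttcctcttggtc
The motif occurred in 2 places in Agr2 and in 2 in Clca1, and its letters are not in this window of Spink4. Of 27457 rat promoters of the same length, 49.8% held it, so its presence is common.

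Most genes of the cell cycle and of crypt cells were also brighter at the villus top of iron-fed Belgrade rats, without any passing the test. Of 28 cell cycle and replication genes 21 were higher there, with a median of 0.665 (0.538 without repleted rat 3). At the bottom 15 of 28 were higher with a median of 0.055, and without repleted rat 3 these values were 22 of 28 and 0.215. Of 10 crypt stem and Wnt genes 7 were higher at the top, with a median of 0.487 (6 and 0.499 without repleted rat 3). Their bottom median was -0.174 with 2 of 10 higher, and without repleted rat 3 it was 0.192 with 8 of 10 higher. Mcm7, a subunit of the replicative helicase, was at 11.30, 11.17, 11.15 and 11.02 in the Belgrade rats and at 11.16, 8.37 and 8.73 in the repleted rats. Repleted rat 1 overlapped the Belgrade rats, and the other 2 were dim. Aurka, a mitotic kinase, differed by 2.18 (adjusted p 0.0891). Klf5, a transcription factor of proliferating crypt cells, was at 12.30, 10.96, 12.17 and 10.52 in the Belgrade rats and at 10.05, 6.78 and 8.73 in the repleted rats. The groups did not overlap, and the difference was 2.97 ± 0.54 (adjusted p 0.0594) at the top and 1.20 (adjusted p 0.127) at the bottom. Myb, which crypt progenitors need, was at 12.07, 9.09, 11.06 and 10.64 in the Belgrade rats and at 9.15, 6.73 and 8.39 in the repleted rats, a difference of 2.63 (adjusted p 0.0757).

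Paneth cells secrete antimicrobial proteins at the crypt base, and 10 of their markers had a median of 0.90 at the top and 0.194 at the bottom. The list was split, with 6 of 10 higher at the top, and none passed. Without repleted rat 3 the medians were 0.749 (5 of 10 higher) and 0.567, and without repleted rat 1 the bottom median was -0.05. Pla2g2a, a secreted phospholipase that kills bacteria, was at 11.58, 12.15, 11.56 and 11.81 in the Belgrade rats and at 10.48, 7.13 and 6.76 in the repleted rats (difference 3.66 ± 0.92, adjusted p 0.0757). The α-defensin Defa24 differed by 1.76 at the top (adjusted p 0.126) and the lysozyme gene Lyz2 by -0.19. Defensin genes are near copies of each other, so their probe sets may read more than 1 of them. At the bottom the antimicrobial lectin Reg3g was at 13.45, 15.36, 15.48 and 15.18 in the Belgrade rats and at 13.76, 11.49 and 10.96 in the repleted rats. Repleted rat 1 lay above Belgrade rat 1, and the difference was 2.80 ± 0.63 (adjusted p 0.101).

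The genes of apical iron uptake and export were at nearly equal levels at the villus top after 3 days of iron. Slc11a2 was at 17.24, 17.30, 17.21 and 17.26 in the iron-fed Belgrade rats and at 17.28, 17.41 and 16.95 in the repleted rats. Its difference was 0.04 ± 0.17 (adjusted p 0.926). Cybrd1 differed by 0.13 ± 0.16, the brightest ferroportin probe set by 0.02 ± 0.15, and Heph by -0.15 ± 0.15. Groups overlapped for all of these 4 genes. Levels near 17 are at the bright end of the arrays, and a p that misses the threshold does not show that the groups are alike.

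In the bottom arrays the same genes were spread widely in the repleted group. Leaving out rat 3 turned the sign of the difference for Slc11a2, Slc40a1 and Heph, and made that of Cybrd1 more negative. Slc11a2 was at 15.62, 16.71, 15.88 and 16.19 in the Belgrade rats and at 16.44, 17.21 and 12.46 in the repleted rats. The difference was 0.73 ± 0.68 with all rats and -0.72 without repleted rat 3 (limma, adjusted p 0.718 and 0.436). Cybrd1 was at 12.98, 15.28, 13.22 and 14.78 in the Belgrade rats and at 14.53, 16.23 and 11.48 in the repleted rats, a difference of -0.02, or -1.32 without rat 3. Slc40a1 gave 0.22 with rat 3 and -0.76 without, and Heph gave 0.37 and -0.45. The bottom array of rat 3, with its low levels of these genes, also had the highest stromal marker level of the 7 rats. The part of stroma in these values was not tested.

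The proton-coupled folate transporter Slc46a1, which has also been described as a carrier of heme, was lower in iron-fed Belgrade rats in both segments without passing the test. At the top it was at 11.81, 12.15, 10.56 and 12.02 in the Belgrade rats and at 13.52, 12.94 and 13.08 in the repleted rats. At the bottom it was at 7.75, 8.64, 5.93 and 6.07 in the Belgrade rats, all dim, and at 10.01, 10.11 and 9.03 in the repleted rats. No Belgrade array overlapped a repleted array in either segment. The differences were -1.54 ± 0.54 (adjusted p 0.173) and -2.62 ± 0.60 (adjusted p 0.105), and without repleted rat 3 they were -1.59 and -2.96. The backgrounds for such separation downward were 4.78% at the top and 4.16% at the bottom. Of the 7 uptake and reduction genes, 4 were higher and 3 lower at the top, and the counts were the same at the bottom. Without repleted rat 3, 2 of 7 were higher at the top and 1 of 7 at the bottom, where the median was -0.362, against 0.048 with that rat.

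Among 13 genes of iron storage, sensing and the transferrin cycle none passed the test in either segment, and the ferritin genes Fth1 and Ftl1 were not analysed here because no probe set carried their symbol alone. Tfrc, the transferrin receptor that takes up iron from blood and whose mRNA is stabilised when iron is low, was at 15.06, 15.03, 14.89 and 14.90 at the top in the Belgrade rats. In the repleted rats it was at 12.98, 13.92 and 12.49. The groups did not overlap, and the difference was 1.84 ± 0.54 (adjusted p 0.110), or 1.52 without repleted rat 3. A second Tfrc probe set gave 2.00 ± 0.57 (adjusted p 0.104). At the bottom the brightest probe set differed by 0.59 (adjusted p 0.214) and repleted rat 2, at 16.21, lay among the Belgrade rats.

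Ireb2, which encodes iron regulatory protein 2, was at 14.21, 13.44, 13.28 and 14.50 at the top in the Belgrade rats and at 15.02, 14.92 and 14.82 in the repleted rats. The arrays did not overlap, with a difference of -1.06 ± 0.29 (adjusted p 0.0920). Its partner Aco1, iron regulatory protein 1, differed the other way by 0.69 (adjusted p 0.178). Ncoa4, the receptor that delivers ferritin to lysosomes, was at 13.82, 13.75, 13.99 and 13.09 at the bottom in the Belgrade rats and at 12.68, 12.28 and 12.30 in the repleted rats. That difference was 1.24 ± 0.27 (adjusted p 0.101). At the top repleted rat 3 was at 16.32, above every other rat of the comparison, and repleted rats 1 and 2 were at 11.48 and 11.32, below all 4 Belgrade rats. There the difference was 0.80 with rat 3 and 2.44 without it (adjusted p 0.153).

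**Figure D2:**
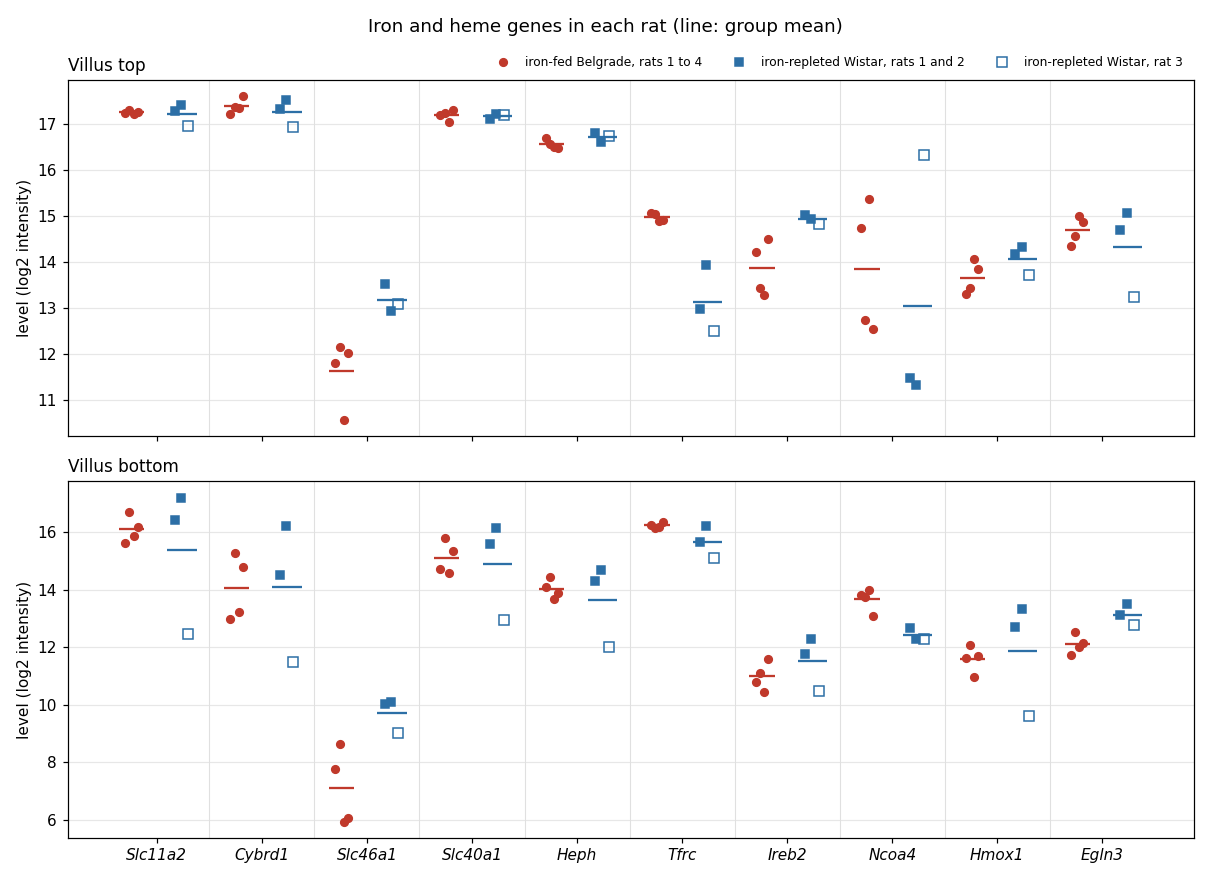
Level (log2 intensity, vertical axis) of 10 iron, heme and oxygen-sensing genes in each rat at the villus top (upper panel) and bottom (lower panel). Red circles are the 4 iron-fed Belgrade rats and blue squares the 3 iron-repleted Wistar rats, with rat 3 open and a line at each group mean. Slc11a2 was level at the top (difference 0.04), Slc46a1 was lower in Belgrade in both panels, and repleted rat 3 was far below the others for Slc11a2 at the bottom, at 12.46.

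Genes of heme synthesis and breakdown were higher in 10 of 12 cases at the top with a median of 0.63, but without repleted rat 3 the median was 0.001. Fech, which inserts iron into heme, shows this. It was at 11.66, 11.90, 11.65 and 11.46 in the Belgrade rats and at 11.66, 11.62 and 8.14 in the repleted rats. The difference was 1.20 with rat 3 and 0.03 without. Cpox and Alad, both earlier enzymes of heme synthesis, did not overlap between the groups (differences 0.78 and 0.89, adjusted p 0.198 and 0.179). The heme-degrading enzyme Hmox1 was at 13.30 to 14.06 in the Belgrade rats and at 13.72 to 14.32 in the repleted rats at the top (difference -0.41). At the bottom its difference was -0.29, or -1.42 without repleted rat 3 (adjusted p 0.130).

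Egln3, an oxygen- and iron-dependent prolyl hydroxylase induced by hypoxia-inducible factors, was at 11.74, 12.52, 12.02 and 12.13 at the bottom in the Belgrade rats and at 13.12, 13.52 and 12.77 in the repleted rats. The arrays did not overlap, and the difference was -1.03 ± 0.27 (adjusted p 0.138), or -1.22 without repleted rat 3. At the top it differed by 0.37. The glycolytic regulator Pfkfb4 differed by -1.05 at the top (adjusted p 0.169). Over 34 hypoxia-inducible genes the median was 0.188 at the top (25 higher) and -0.084 at the bottom, and none passed. Without repleted rat 3 the top median changed sign to -0.069 (15 higher), and the bottom one was -0.159. Alox15, a lipoxygenase, was at 10.50, 12.01, 12.96 and 12.72 at the top in the Belgrade rats and at 11.53, 12.36 and 6.51 in the repleted rats. Its difference of 1.91 rested on rat 3 and was 0.10 without it. The bottom values were 1.57 and 0.62.

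A metallothionein and a zinc exporter had lower levels in iron-fed Belgrade rats, again without passing the test. The metallothionein Mt2A, which binds zinc and copper, was at 12.89, 11.40, 12.57 and 12.53 at the top in the Belgrade rats and at 14.12, 13.78 and 13.79 in the repleted rats. It did not overlap, with a difference of -1.56 ± 0.43 (adjusted p 0.0976). Slc30a1, the zinc exporter of the plasma membrane, was at 9.14, 8.76, 8.57 and 11.07 in the Belgrade rats and at 11.26, 12.10 and 10.79 in the repleted rats. Belgrade rat 4 lay above repleted rat 3, and the difference was -2.00 ± 0.62 (adjusted p 0.131). The copper pump Atp7a differed by 0.51 at the top and 0.05 at the bottom in its brightest probe set. The list of 19 copper and zinc genes was split at the top, with 10 higher and a median of 0.082. At an unadjusted p of 0.05 in limma, 2 of them were higher and 2 lower there. The bottom median was 0.065 (13 higher). Without repleted rat 3 the medians were 0.003 at the top (10 higher) and -0.275 at the bottom (6 higher).

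Genes of digestion and absorption were on the low side at the villus top of iron-fed Belgrade rats. Of 16 brush border genes 14 were lower, with a median of -0.338 (-0.33 without repleted rat 3), and none passed. Treh, the brush border trehalase, was at 13.53, 13.20, 13.08 and 12.98 in the Belgrade rats and at 14.55, 14.47 and 14.79 in the repleted rats. It did not overlap, and the difference was -1.41 ± 0.27 (adjusted p 0.0594, and 0.102 without rat 3). Enpep, an aminopeptidase, was at 14.20 in Belgrade rat 1 but at 10.31, 9.23 and 11.08 in the others, and at 14.71, 13.45 and 14.41 in the repleted rats. Of 14 sugar, peptide and amino acid transport genes 11 were lower at the top, with a median of -0.417 (-0.051 without repleted rat 3). In fat absorption, 15 of 19 genes were lower at the top, with a median of -0.286 (-0.114 without repleted rat 3). The fatty acid receptor Cd36 differed by -1.50 ± 0.43 (adjusted p 0.105) and Sar1b, which moves chylomicrons out of the endoplasmic reticulum, by -0.61 (adjusted p 0.138). The glycerol and water channel Aqp7 was at 14.31, 14.68, 14.03 and 14.90 in the Belgrade rats and at 15.43, 15.90 and 16.03 in the repleted rats, a difference of -1.31 ± 0.34 (adjusted p 0.0834).

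At the bottom the medians of these lists turned on repleted rat 3. For brush border genes the median was -0.085 with it and -1.086 without it, and for fat absorption genes 0.118 and -0.677. Cholesterol synthesis genes had a median of 0.565 at the top (19 of 21 higher), or 0.35 without rat 3. At the bottom their median was 0.093 with rat 3 and -0.395 without it, where 1 of 21 was higher. Fdps, an enzyme of the isoprenoid steps, was at 15.00, 15.40, 15.13 and 15.28 at the top in the Belgrade rats and at 14.60, 14.65 and 13.68 in the repleted rats (difference 0.89, adjusted p 0.143). No cholesterol gene passed in either segment.

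Most RNA processing genes had higher levels in iron-fed Belgrade rats in both segments. Of 25 genes 19 were higher at the top (median 0.372) and 17 at the bottom (median 0.161), with medians of 0.301 and 0.304 without repleted rat 3, and none passed. Clk4, a kinase that phosphorylates splicing factors, was at 12.30, 11.62, 11.80 and 11.95 at the top in the Belgrade rats and at 10.75, 11.02 and 10.39 in the repleted rats. The bottom values were 12.12, 11.97, 11.59 and 11.76 in Belgrade rats and 11.04, 10.89 and 10.77 in repleted rats. Neither segment overlapped, and the differences were 1.20 ± 0.28 (adjusted p 0.0735) and 0.95 ± 0.20 (adjusted p 0.0954). Luc7l3, a protein of the U1 splicing complex, differed by 0.97 at the top (adjusted p 0.0641). Dusp11, a phosphatase that acts on RNA, was at 13.01, 12.83, 12.87 and 12.83 at the top in the Belgrade rats and at 11.70, 11.33 and 11.80 in the repleted rats (difference 1.27 ± 0.23, adjusted p 0.0594). It passed without repleted rat 3 (adjusted p 0.0489). The exosome subunit Exosc8 differed by 2.26 at the top (adjusted p 0.0594) and by 0.21 at the bottom. The complex I subunit Ndufa9 differed by 0.65 at the top and did not overlap (adjusted p 0.0757), and of 25 respiration and iron-sulfur cluster genes 18 were higher there, with a median of 0.141 (0.189 without repleted rat 3).

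Other genes of lowest p at the top that were higher in Belgrade, none past the threshold, were Cdk5rap3 (3.31), Mettl13 (2.05) and Ndufaf4, an assembly factor of complex I (2.20). Those lower at the top were led by 2 class I histocompatibility probe sets, RT1-CE10 (-1.25, adjusted p 0.0594) and RT1-CE12 (-1.05, adjusted p 0.0711). Both may read several of the near-identical RT1 genes, which are also polymorphic between rats. Lgals3bp, a secreted glycoprotein induced by interferon, was at 12.09, 12.33, 12.14 and 12.32 in the Belgrade rats and at 13.41, 14.03 and 13.00 in the repleted rats. Its difference was -1.26 ± 0.25 (adjusted p 0.0594), and without repleted rat 3 it passed, at -1.50 (adjusted p 0.0263). The others were dim in the Belgrade rats: Nkx2-5 (-3.97), Cimap1b (-3.19), the probe set annotated to the microRNA gene Mir3593 (-2.76) and Ninj2 (-2.41). Such differences are set largely by levels near the bottom of the scale.

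The next higher genes at the bottom were Abcd3, a peroxisomal transporter (1.84, adjusted p 0.0704), Uba6 (1.02), Phf3 (2.18), Nufip2 (1.38), Acer2 (2.30) and Tmem33 (1.52). Phf3 and Acer2 were dim in the repleted rats, at 6.80 to 7.75 and at 6.90 to 8.17. For Abcd3 repleted rat 3 was at 16.06 at the top, above every other rat, and at 10.04 at the bottom, below every other rat. The lower genes were led by Rela, a subunit of NF-κB, at 11.24, 11.71, 11.33 and 11.50 in the Belgrade rats and at 12.30, 12.42 and 12.40 in the repleted rats (difference -0.93 ± 0.19, adjusted p 0.0954). Ddx3x-ps1 (-1.78), the matrix protein gene Emilin1 (-1.18), Gm2a (-1.02), Rbm42 (-0.81), Slc6a13 (-2.68) and Actr1a (-0.70) followed, with Slc46a1 as given above. Ddx3x-ps1 is a pseudogene, and its probe set may read the parent gene. The vitamin D receptor Vdr was at 10.90, 12.04, 11.34 and 11.46 in the Belgrade rats and at 12.93, 13.02 and 12.22 in the repleted rats, a difference of -1.29 (adjusted p 0.230). The immediate early gene Jund differed by 1.92 ± 0.40 (limma, adjusted p 0.0954), also without overlap, but most of its list went the other way. Of 21 immediate early and heat shock genes 16 were lower at the bottom, with a median of -0.227, and none passed. Without repleted rat 3 the median was -0.068, with 9 of 21 higher.

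**Figure D3:**
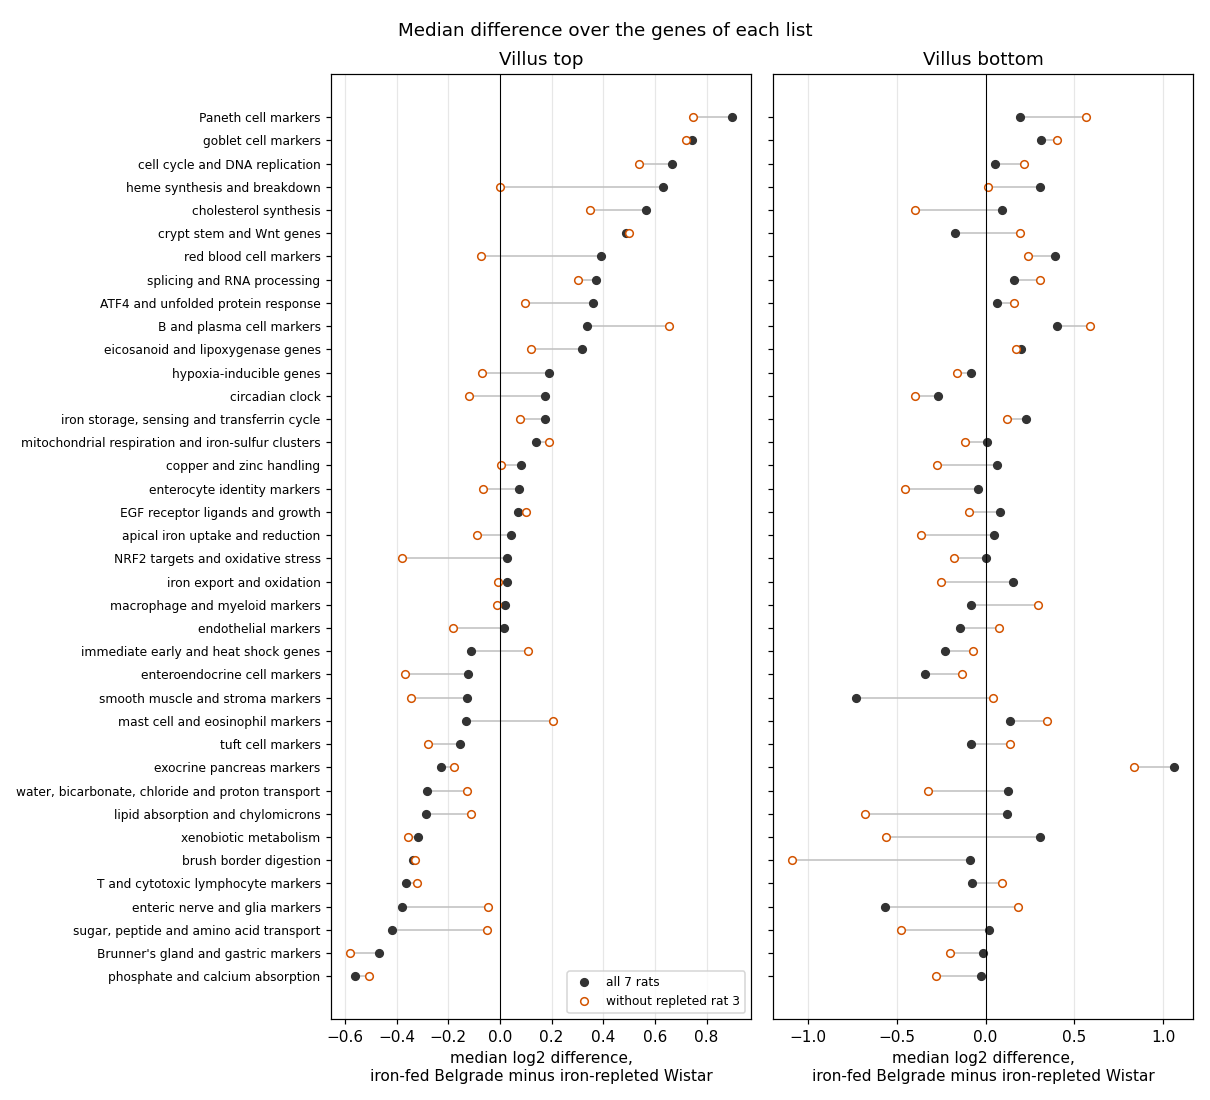
Median difference (log2, horizontal axis, iron-fed Belgrade minus iron-repleted Wistar) over the genes of each of 38 lists at the villus top (left) and bottom (right). Filled points use all 7 rats and open points leave out repleted rat 3. The goblet median at the top is almost the same in both (0.745 and 0.721), while brush border genes at the bottom move to -1.086 without that rat.

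Smooth muscle, stroma and pancreas markers at the bottom were set apart in single arrays. All 22 smooth muscle and stroma markers were lower at the bottom in iron-fed Belgrade rats, with a median of -0.731, and 11 of 22 were higher without repleted rat 3, with a median of 0.043. Their mean level at the bottom was 12.84, 12.37, 13.85 and 12.97 in the Belgrade rats and 12.98, 13.01 and 15.23 in the repleted rats. The highest control Wistar rat was at 15.29. Exocrine pancreas markers were at 7.78 to 7.88 in Belgrade rats 1 to 3 at the bottom, at 12.57 in Belgrade rat 4, and at 7.79 to 8.15 in the repleted rats. At the top all 7 rats lay between 7.94 and 8.43 for these markers. Their part in the gene differences was not tested. Enteroendocrine markers at the top had mean levels of 9.99 to 10.29 in the Belgrade rats and 10.50 to 10.61 in the repleted rats, without overlap. The median difference over 17 genes was -0.124 (-0.369 without repleted rat 3). Of these genes 2 were separated downward and 1 upward, against backgrounds of 4.78% and 5.64%. Means of other lists at the top, such as brush border digestion (14.37 to 15.20 and 15.32 to 15.43), did not overlap either. At the bottom the enteroendocrine means overlapped (10.28 to 10.53 and 10.42 to 11.10). Of the immune cell lists, T and cytotoxic lymphocyte markers had a median of -0.363 at the top, with the protease Gzmb at -0.89 (adjusted p 0.114). B and plasma cell markers had medians of 0.337 at the top and 0.40 at the bottom. Single rats moved these: the top median was 0.654 without repleted rat 3 and 0.08 without repleted rat 2, and the bottom median was 0.14 without repleted rat 1. The antigen presentation chain Cd74 differed by -0.89 at the top (adjusted p 0.0797). Red cell markers had a median of 0.393 at the top, or -0.073 without repleted rat 3.

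**Figure D4:**
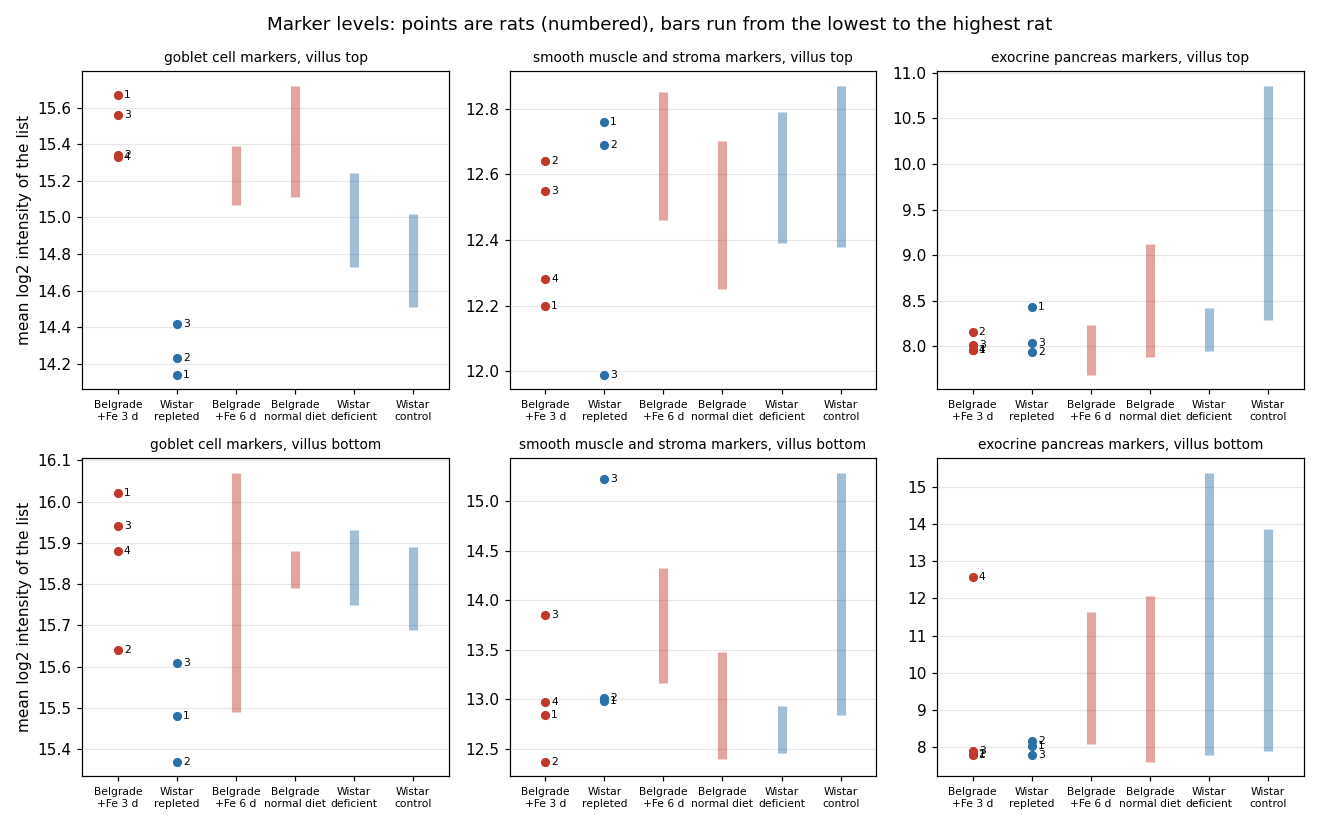
Mean level (log2 intensity, vertical axis) of goblet cell, stroma and exocrine pancreas markers at the villus top (upper row) and bottom (lower row). Points with numbers are the rats of the iron-fed Belgrade and the iron-repleted Wistar group, and bars run from the lowest to the highest rat of the other 4 groups. The goblet level at the top is 15.33 to 15.67 in iron-fed Belgrade rats and 14.14 to 14.42 in repleted rats, repleted rat 3 is high in stroma at the bottom (15.23), and Belgrade rat 4 is high in pancreas markers at the bottom (12.57).

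Whether the group difference itself changed along the villus was tested through the difference between top and bottom within each rat. With all rats 0 probe sets passed (limma, smallest adjusted p 0.112), and 3441 passed an unadjusted p of 0.05 (11.1%). The named genes of lowest p with a larger Belgrade difference at the top were Mical3 (2.52), Xpo4 (1.86) and Exosc8 (2.04), each with an adjusted p of 0.112. For Spink4 the top difference exceeded the bottom one by 2.19 (adjusted p 0.122). Egln3 gave 1.41 (adjusted p 0.139). On the other side were Shroom3 (-2.67), Gclm (-0.98) and H19 (-3.90). Without repleted rat 3, 4 probe sets passed, which is 0.0129%. Without repleted rat 1 or rat 2 the counts were 143 and 72. The 4 were Rab3d (3.00) and Pdia5 (1.94), the unnamed 1397389_at (2.31) and the unnamed 1384247_at (-5.40). The last was dim in every Belgrade array, at 5.54 to 5.93 at the top and 7.91 to 8.59 at the bottom.

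The study also holds Belgrade rats on the normal diet and iron-deficient Wistar rats without iron. The change with iron was compared between Belgrade and Wistar rats on each rat's mean of top and bottom. Genotype, earlier iron deficiency by diet and bleeding, and any difference in age differ together in this comparison too. Here 0 probe sets passed (limma, smallest adjusted p 0.62), and 2253 passed unadjusted (7.26%). Slc46a1 averaged 9.37 in iron-fed Belgrade rats and 10.75 in Belgrade rats on the normal diet, and 11.45 in repleted and 10.90 in iron-deficient Wistar rats. The difference in its change between Belgrade and Wistar rats was -1.93 ± 0.66 (adjusted p 0.62). Spink4 averaged 15.26 in iron-fed and 14.96 in unfed Belgrade rats, and 12.73 in repleted and 14.38 in iron-deficient Wistar rats, so the difference in change was 1.94 ± 0.66 (adjusted p 0.62). For Tfrc the same test gave 0.33 ± 0.47 (adjusted p 0.909). The genes of lowest p were Wdr3 (1.96), Drg1 (1.17) and Nt5dc1 (1.38) upward, and Xylt2 (-2.26), Ltbp4 (-1.13) and Pink1 (-1.29) downward.

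Leaving out repleted rat 3 raised the number of probe sets that passed to 12 at the top (0.0387%), 9 higher and 3 lower in iron-fed Belgrade rats, and to 13 at the bottom (0.0419%), 10 higher and 3 lower. At the top Spink4, Dusp11 and the 2 unnamed probe sets given above were joined by Rab3d, Pdia5, Abraxas1, Nectin2 and the unnamed 1391061_at among the higher ones, and Irf7, Lgals3bp and the unnamed 1384247_at were the lower ones. Rab3d, a GTPase of secretory granules, was at 10.59, 10.42, 10.69 and 10.36 in the Belgrade rats and at 8.89, 6.05 and 9.17 in the repleted rats. Pdia5, a disulfide isomerase, was at 11.97, 11.27, 11.95 and 11.18 in the Belgrade rats and at 8.69, 9.91 and 11.47 in the repleted rats. With rats 1 and 2 alone their differences were 3.05 and 2.29 (adjusted p 0.0263 for both), against 2.48 and 1.57 with rat 3 (adjusted p 0.0711 and 0.102). Abraxas1, a DNA repair scaffold, differed by 3.32, against 2.49 with rat 3 (limma, adjusted p 0.0757). All repleted rats were dim for it, at 5.86 to 8.59. The adhesion protein gene Nectin2 differed by 2.92, against 1.69 with rat 3 (adjusted p 0.215). For Nectin2 repleted rat 3, at 10.77, lay above all Belgrade rats, which were at 9.34 to 10.45. Repleted rats 1 and 2 were dim for it, at 6.49 and 7.64. Irf7, the interferon regulator, was at 12.15, 12.36, 11.89 and 12.92 in the Belgrade rats and at 13.90, 14.30 and 12.84 in the repleted rats. It fell by 1.77 on the log2 scale without rat 3 (adjusted p 0.0263).

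At the bottom without repleted rat 3 the named genes higher in Belgrade were Shroom3 (2.59), Bckdha (2.82), Bcl2l2 (1.42), Phf3 (2.42), Chac2 (2.23) and Acer2 (2.66). Tex15 was lower by 2.85 on the log2 scale. Except for Bcl2l2, the higher ones were dim in repleted rats 1 and 2, at 6.28 to 7.90. Tex15 was dim in the Belgrade rats, at 5.87 to 6.62. Such differences are set largely by levels near the bottom of the scale. The remaining 6 probe sets have no symbol in the annotation used. For Shroom3 and Bckdha rat 3, at 9.63 and 10.15, lay with the Belgrade rats, which were at 8.77 to 9.52 and at 9.24 to 10.04. These lists were obtained with 2 repleted rats, neither with a high Xist level, and the spread is taken from the shared fit of all groups.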

How the data were processed

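The members and gene lists were chosen with earlier results of these data known. Per the labels' protocols, total RNA was copied with a T7-oligo(dT) primer and labelled with biotin. The authors deposited linear signal intensity values per probe set of a rat expression array. The values were scaled by the authors to a trimmed mean (computed here without the outer 2% of each end) of 2501 on 40 villus arrays and 2876 on 4. These 4 were both arrays of iron-fed Belgrade rat 3 and both of control Wistar rat 3. The signal algorithm is not given in the sources used here, and detection calls were not used here. The 57 control probe sets were left out, leaving 31042, of which 20826 carry 1 gene symbol, 436 several and 9780 none. A constant of 44, the 10th percentile, was added, log2 was taken, and quantile normalization was run over the 44 villus arrays.

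A linear model of all 6 villus groups was fitted in limma (version 3.58.1, R 4.3.3) with lmFit and eBayes with a trend, with Benjamini-Hochberg adjustment over all probe sets and a threshold of 0.05. In 2 other groups, rats 1 and 2 were near-identical (robust SD of their differences under 0.2 over 5464 bright probe sets) and were averaged, so 20 samples were counted from 22 rats. The fit was run on simulated data with the same spread in every group, so a wider spread in 1 group was not checked. Of true differences of 1 on the log2 scale it called 20% at the top and 26% at the bottom. Of differences of 4 it called 94% and 100%, with 5 false calls in each segment. A gene is its brightest probe set. Named genes were those of the iron list, the called probe sets, otherwise the 8 of lowest p in each direction without overlap and over the 40th percentile, and in each list up to 4 called members or the 2 of lowest p. Outside that rule, Clca1, Muc2, Tff3, Spdef, Fcgbp, Muc13, Fech, Aco1 and Lyz2 and the genes called only without repleted rat 3 were named after their values were seen. Whether rats of a group came from separate litters is not stated. The p-values measure the spread between the rats sampled, pooled over all 6 villus groups and not taken from the 2 compared groups alone. Mean correlation of an array with its own group at the top was 0.766 to 0.818 in repleted rats. In iron-fed Belgrade rats it was 0.886 to 0.897. The number of arrays limits the precision. Same-numbered rats are different animals, and their deviations correlated at -0.00123 to 0.108, so numbers were not used as pairs. Figures were drawn with matplotlib 3.10.9.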

Additional observations from a re-analysis of the deposited data

Results flagged for a closer look

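Among 148 values screened, 5 had 1 iron-fed Belgrade rat apart from the other 3, by Dixon's test of the gap to the nearest rat over the whole range. Chance alone picks about 5 percent of such groups. Exocrine pancreas markers at the villus bottom had a mean level of 12.57 in Belgrade rat 4, against 7.78 to 7.88 in the other 3. High bottom levels also occurred outside the comparison. The highest rat was at 15.39 in iron-deficient and 13.88 in control Wistar rats. It was at 12.07 in Belgrade rats on the normal diet and 11.64 in those given iron for 6 days. Emilin1 at the bottom was at 10.15 in Belgrade rat 4 and at 10.72 to 10.78 in the others. The mean level of the mitochondrial respiration list at the bottom was 14.82 in Belgrade rat 3 and 14.93 to 14.95 in the others. At the top, rat 2 was the high one for Nkx2-5, at 7.94 against 6.01 to 6.28, and for Cimap1b, at 6.63 against 5.85 to 5.95. All of these top levels are dim.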

How the results depend on the processing

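The number of probe sets passing an adjusted p of 0.05 in limma was 3 at the top, 3 at the bottom, 0 for top minus bottom and 0 for the change with iron. Leaving out 1 rat in turn gave 0 to 507 at the top, 0 to 105 at the bottom, 0 to 143 for top minus bottom and 0 to 3 for the change with iron. With only the 2 groups fitted the counts were 0 at the top and 0 at the bottom. Spink4 at the top and Rcbtb1 and Bcl2l2 at the bottom then had adjusted p of 0.216, 0.262 and 0.262 in limma. With all 22 rats counted separately the counts were 79 and 10. The deposited values without quantile normalization gave 0 at the top, and median centring gave 16, where the median of all probe sets was 0.212 at the top. With a constant of 11 the count was 5 at the top, and with 176 it was 0 at the bottom. Without the trend the counts were 10 at the top, 16 at the bottom and 4 for top minus bottom. Without the rat of each group with high Xist, an alternative chosen after seeing the data, they were 14, 0 and 2. With both segments in 1 fit and the rat as a random block, with a correlation of 0.126, they were 1043 and 11. With the replicate number as a block they were 439 at the top, 17 at the bottom, 1 for top minus bottom and 0 for the change with iron, although the numbers do not pair these rats. Filtering to 26517 probe sets left 3 and 3. The causes of these shifts were not tested.

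Of 1163 gene differences recomputed, 1003 kept their direction and side of the threshold, 27 lost it, 102 gained it and 31 changed sign. The sign changes were in Slc11a2, Slc40a1, Cybrd1, Heph, Hmox1, Egln3 and Atp7a. With 1 rat left out in turn, top differences ran from -0.09 to 0.14 for Slc11a2, from -0.02 to 0.07 for Slc40a1, from -0.03 to 0.26 for Cybrd1 and from -0.17 to 0.74 for Egln3. At the bottom they ran from -0.72 to 1.65 for Slc11a2, from -0.76 to 0.84 for Slc40a1, from -1.32 to 1.06 for Cybrd1 and from -0.45 to 0.88 for Heph, from -0.47 to 0.57 for Atp7a and from -1.42 to 0.45 for Hmox1. At the top Slc11a2 was -0.26 as deposited, 0.00 with median centring and -0.11 without the high-Xist rats. Slc40a1 was -0.33 as deposited and -0.07 with median centring, Cybrd1 was -0.17 as deposited and -0.03 without the high-Xist rats, and Egln3 was -0.13 without them. At the bottom, without the high-Xist rats, Slc11a2 was -0.93, Slc40a1 -0.99, Heph -0.59 and Atp7a -0.57. Cybrd1 at the bottom was 0.02 with median centring and 0.19 with the replicate block. Of 1444 list medians, 1368 moved by less than the spread between rats. The goblet median ranged from 0.57 to 1.03 at the top and from 0.23 to 0.47 at the bottom.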

Other observations

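Genes induced by interferon and genes of antigen presentation were lower in iron-fed Belgrade rats more often than higher. This list of 33 measured genes was chosen after the values were seen, so its counts are a description. At the top 23 of 33 were lower, with a median of -0.53, and without repleted rat 3 the counts were 29 of 33 with a median of -0.73. At the bottom 23 of 33 were lower, with a median of -0.27, or 26 of 33 with -0.46 without that rat. With all rats 0 of the 33 passed the test in limma, and without repleted rat 3, Irf7 and Lgals3bp passed at the top. Oas1a, which makes the activator of RNase L, differed by -2.02 and the ubiquitin-like Isg15 by -0.94 at the top. The class I light chain B2m and the immunoproteasome subunits Psmb8 and Psmb9 differed by only -0.12, 0.03 and 0.15.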
